A study of Mus musculus with 2 samples.

Results

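Tumor cells with a high luminal progenitor score were set against tumor cells with a low score, inside the same 2 mouse mammary tumors. The cells were selected on the deposited score alone: annotated cells of every cluster except 6, 13, 15 and 16, with at least 5000 UMIs (unique molecular identifiers, each standing for 1 captured RNA molecule), entered the high side with a score above 0.9 and the low side with a score below 0.1. This gave 1286 high-score cells, 631 from mouse 1 and 655 from mouse 2, and 1916 low-score cells, 819 and 1097, of 9159 annotated cells in all. The 2700 cells with scores from 0.1 to 0.9 served as a middle group for description. The lowest score inside the high side was 0.901 in both mice, and the highest score just outside it was 0.899 in mouse 1 and 0.897 in mouse 2. At the other end the highest score inside the low side was 0.09913 in mouse 1 and 0.099999 in mouse 2, and the lowest score outside it was 0.100055 and 0.100202.

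Both animals carried MMTV-PyMT, a transgene in which a mammary promoter drives the polyoma middle T oncogene, together with a Krt8-driven, tamoxifen-inducible Cre and the Rosa26-mTmG reporter, which turns labelled Krt8-positive luminal cells and their progeny green. Tamoxifen was given at 150 mg/kg for 6 days, spread over weeks 5 and 6 of age, and tumors were taken at a volume of 1.5 cm3. Live GFP-positive cells lacking CD31 and CD45 were sorted and profiled with 10x 3' chemistry. High and low cells of a mouse therefore share genotype, treatment, sort and library, and the mouse is the replicate (n = 2). The sorted cells are those descended from Krt8-positive cells labelled in the tamoxifen weeks, so other tumor cells were not sampled.

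Luminal progenitors are the hormone receptor-low cells of the inner layer of the mammary duct, from which milk-secreting alveolar cells arise. They are known for Kit, Elf5 and Aldh1a3, for early milk protein genes, and for a constitutive readiness to make acute-phase and antimicrobial proteins such as lactoferrin and serum amyloid A. Mature luminal cells, by contrast, carry the estrogen receptor Esr1 and the EGF receptor ligand Areg, and basal cells carry Krt5, Krt14 and smooth muscle genes.

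The libraries held 6175 and 7538 barcodes with 63140346 and 61529883 UMIs, of which 3829 and 5330 cells were annotated, and 9 barcodes occurred in both. High-score cells were shallower than low-score cells in each mouse: the median was 14408 against 21976 UMIs per cell in mouse 1 and 10454 against 14557 in mouse 2. Median genes per cell were 3390 against 4357 and 2896 against 3489. The median share of mitochondrial UMIs was 6.03% against 6.39% in mouse 1 and 5.44% against 5.61% in mouse 2. The part of this depth difference in the results was not tested, but the comparison was repeated with each cell thinned to 5000 UMIs and with cells of at least 10000 UMIs. Epcam, the epithelial adhesion molecule, stood at 7459 and 5320 CPM (UMIs scaled to a common total) in high-score cells and at 6523 and 4951 CPM in low-score cells, while Krt5 had too few UMIs to enter the test.

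The score genes themselves chose the cells and are given here as a description, with no test. The deposited squared distances could be rebuilt from 391 genes, with an R2 of 0.995 in 1800 cells that were left out of the search and 96.7% of those cells within 1% of the deposited value. Of the 364 score genes with enough UMIs to be fitted, 346 had a higher level in high-score cells, 319 of them in both mice, and the median log2 fold change was 0.85. A few of them gave most of the difference. The milk protein gene Csn1s1 supplied 13.2% of the difference in mean squared distance as the mean of the mice, the neutrophil chemokine Cxcl2 9.32%, the enamel protein gene Amtn 7.23% and the milk protein gene Csn1s2a 7.11%. The mice differed in this: Amtn gave 12.9% in mouse 1, the largest share there, and 1.60% in mouse 2, Saa2 gave 1.66% and 7.42%, and the osteocalcin-like gene Bglap2 gave 4.73% and 0.0857%. Those genes together with Saa2, Cxcl1, Scgb2b27, Sfrp2, Saa1 and Bglap2 supplied 58.1%. Cxcl2 was at 877 and 833 CPM in the high-score cells of mice 1 and 2 and at 1.77 and 1.73 CPM in the low-score cells. Csn1s1 was at 134 and 174 CPM against 0.592 and 0.693 CPM. Amtn was at 742 CPM in the high side of mouse 1 but at 47.3 CPM in that of mouse 2, against 0.645 and 0.346 CPM in the low sides. Spp1, which encodes the secreted phosphoprotein osteopontin and also belongs to the score, was at 1358 and 3153 CPM against 42.2 and 179 CPM. Textbook members of the lineage moved far less: Kit was at 60.4 and 87.9 CPM against 23.3 and 53.1 CPM, and Elf5, the alveolar transcription factor, at 174 and 123 CPM against 143 and 120 CPM.

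Different high-score cells reached the limit through different genes. In each cell the score gene giving the largest part of the squared distance was taken as its leading gene. Among high-score cells the leading gene alone gave a median of 39.0% of the distance in mouse 1 and 38.1% in mouse 2, against 12.4% and 11.8% among low-score cells. It gave more than 50% in 200 of the 631 high-score cells of mouse 1 (31.7%) and in 198 of the 655 of mouse 2 (30.2%). Amtn led 144 high-score cells of mouse 1 but 19 of mouse 2, whereas Saa2 led 128 of mouse 2 but 16 of mouse 1. Cxcl2 led 72 and 76 cells, Scgb2b27 led 46 and 56, and Csn1s1 led 49 and 46.

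Some genes outside the score were highest in 1 of these groups. Cxcl5, a neutrophil chemokine, was at 429 and 1389 CPM in the cells led by Cxcl2 and had no UMI in the cells led by Csn1s1 in either mouse. It was not limited to the cells led by Cxcl2, since in mouse 1 it was at 236 CPM in those led by Amtn and at 71.4 CPM in those led by other score genes. Csn2, the beta-casein gene, was at 82.9 and 89.7 CPM in the cells led by Csn1s1, and it was at 0 in the cells led by Cxcl2, Saa2 or Scgb2b27. Chil1, which encodes a secreted chitinase-like protein of inflamed epithelium, reached 4744 and 6039 CPM in the cells led by Saa2 against 328 and 675 CPM in those led by Amtn. Scgb1b27, a secretoglobin gene, was at 478 and 18724 CPM in the cells led by Scgb2b27. Since the leading gene was read from the same cells, these values are a description.

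**Figure D1:**
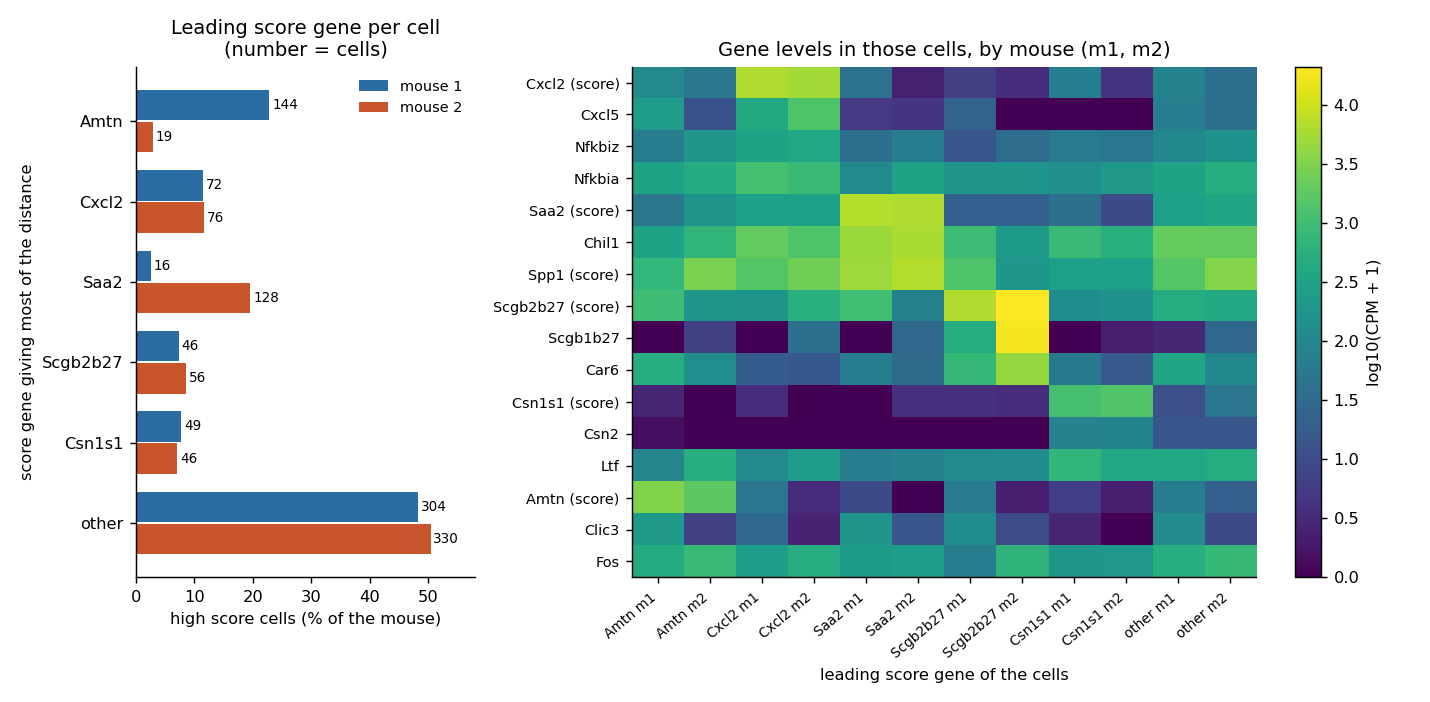
Left, share of the high-score cells of each mouse (x axis, percent) led by each of 5 score genes or by any other score gene, with the number of cells at the bar. Right, level of 16 genes (rows, colour as log10 of CPM plus 1) in the same cells of mouse 1 (m1) and mouse 2 (m2), where Cxcl5 is highest in the cells led by Cxcl2 and Csn2 in the cells led by Csn1s1, while no gene shown from outside the score is highest in the cells led by Amtn in both mice.

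The sides also came from partly different clusters of the deposited annotation. Cluster 0 was the largest in the high side of both mice, with 271 of 631 cells (42.9%) and 254 of 655 (38.8%), and it held 160 (19.5%) and 362 (33.0%) of the low-score cells. Cluster 3 lay almost wholly on the low side, with 340 of 819 (41.5%) and 124 of 1097 (11.3%) low-score cells against 16 and 4 high-score cells. Cluster 7 held 145 high-score cells of mouse 1 (23.0%) and 17 of mouse 2 (2.60%), and cluster 2 held 17 and 141 (21.5%). Because clusters and score were drawn from the same expression values, no test was made of these shares. The comparison was therefore repeated inside cluster 0 and with cells drawn so that both sides had the same cluster mix in each mouse.

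**Figure D2:**
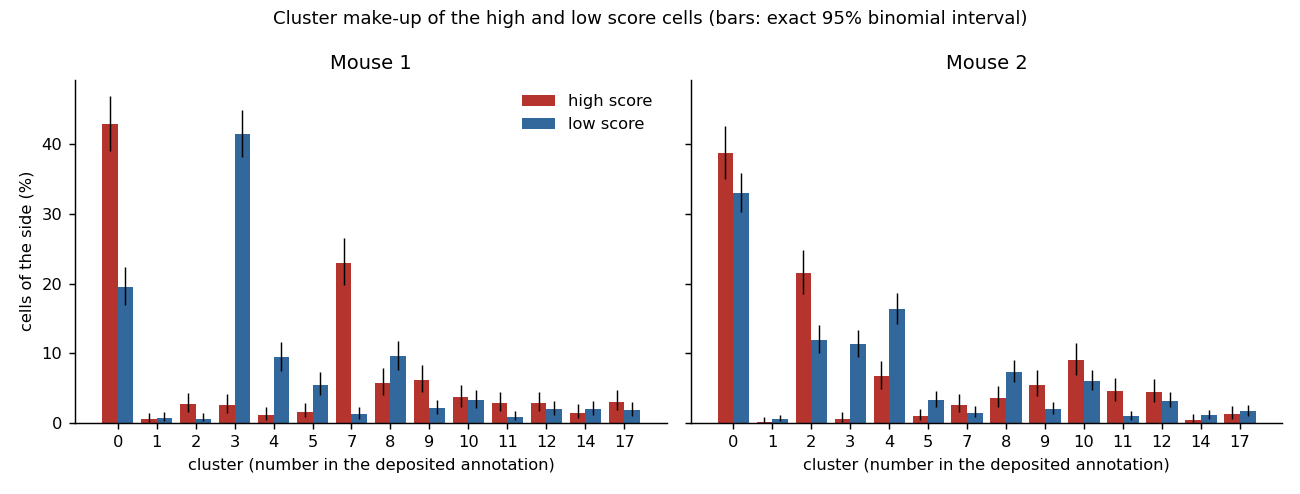
Percent of the high-score (red) and low-score (blue) cells of each mouse that lay in each cluster, with exact 95% binomial intervals that cover counting error only. Cluster 3 is seen almost only in the low side and cluster 7 in the high side of mouse 1.

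To ask which genes outside the score differed between the sides, UMIs were summed per mouse and side and the 4 sums were fitted in edgeR's quasi-likelihood model with the mouse as a block. Of 12234 genes outside the score, 1481 passed a Benjamini-Hochberg adjusted p of 0.05, which is 12.1% of those tested. Of these, 905 were higher in high-score cells (7.40%) and 576 were lower (4.71%). These counts include genes that passed the filter on low counts through 1 side alone and so could differ in 1 direction only. There were 219 such genes among those tested, and 56 of them were called. Among the other 12015 genes 864 were higher and 561 lower. The median log2 fold change over all 12598 genes fitted was 0.01. Changes of at least 2-fold were seen for 336 of the higher and 143 of the lower genes, and 1477 of the 1481 had the same sign in both mice. In 1226 of them (82.8%) the middle cells lay between the sides in both mice. The p-values measure the spread between the 2 mice only. The fit has 1 residual degree of freedom, so it borrows its estimate of the spread from all genes. Without the mouse as a block none of the genes outside the score passed in edgeR, and 1199 had an unadjusted p under 0.05. DESeq2 with the block called 541, of which 532 were among the 1481.

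**Figure D3:**
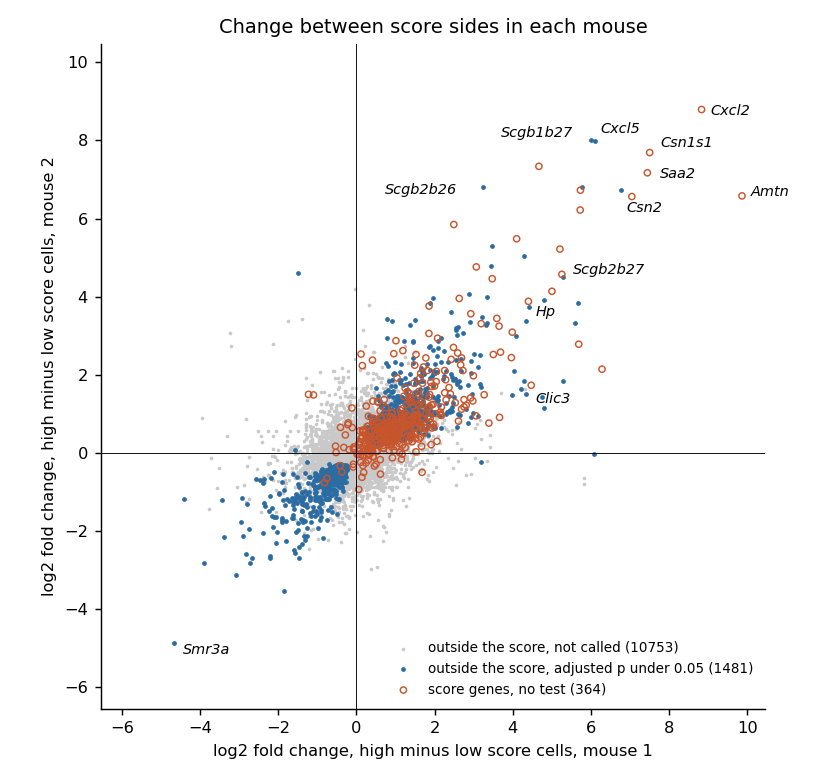
Log2 fold change between high-score and low-score cells in mouse 1 (x axis) and mouse 2 (y axis) for each of 12598 genes. Open orange circles are the 364 score genes, which had no test, blue points the 1481 other genes past an adjusted p of 0.05 and grey points the rest, and called genes lie along the diagonal with Cxcl5 and Scgb1b27 at the upper right and Smr3a at the lower left.

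Acute-phase and defence genes were raised. Of the 22 genes of this list 21 were fitted, 10 of them score genes, and of the 11 others 7 were higher, 1 was lower and 3 did not pass, with a median log2 fold change of 2.03. The list is not independent of the rule, since the cells were chosen partly by its other members Cxcl1, Cxcl2, Saa1, Saa2, C3, Lcn2, Cp, Lrg1, Cfb and Lbp. Cxcl5 (chr5:90759360-90761624, plus strand, GRCm38 in the GENCODE vM21 annotation) was at 142 and 231 CPM in high-score cells and at 2.04 and 0.751 CPM in low-score cells, a log2 fold change of 6.98 ± 0.39 (SE, n = 2 mice, edgeR adjusted p = 0.000271). Hp, the hemoglobin scavenger haptoglobin, was at 46.6 and 248 CPM against 2.15 and 23.8 CPM (log2 fold change 3.75, edgeR adjusted p = 0.000397). Ltf, the iron-binding protein lactoferrin, was at 306 and 324 CPM against 15.5 and 90.4 CPM (3.01, edgeR adjusted p = 0.0155). For these genes the lowest high-score sum lay above the highest low-score sum. Most high-score cells held none of their UMIs: Cxcl5 was detected in 47 of 631 and 62 of 655 cells. Hp was detected in 46 and 135 high-score cells and Ltf in 133 and 176. A single cell held 28.2% of the high-side Cxcl5 UMIs of mouse 1 and 14.0% of those of mouse 2.

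Regulators of the NF-kB pathway, whose transcription factors switch on chemokine and acute-phase genes, moved the same way. Nfkbiz, a nuclear cofactor needed for a subset of NF-kB targets, was at 114 and 157 CPM against 27.9 and 38.1 CPM, a rise of 4.09-fold (edgeR adjusted p = 0.000172). Nfkbia, the feedback inhibitor IkB-alpha, was at 394 and 470 CPM against 117 and 152 CPM, a rise of 3.23-fold (edgeR adjusted p = 0.000242). Ccl20 and Saa3 were called too, but they passed the filter on low counts through the high side alone, with 5 and 2 UMIs of Ccl20 and 3 and 10 of Saa3 in the low-score sums, so that they could only differ upward. Of the other 9 acute-phase genes 5 were higher and 1 lower, with a median log2 fold change of 1.79. There were 20.04 and 2.49 CPM of Ccl20 and 8.50 and 10.8 CPM of Saa3 in high-score cells and under 1 CPM of each in low-score cells. In mouse 1 a single cell held 79.1% of the high-side Ccl20 UMIs, and in mouse 2 a single cell held 72.4% of the high-side Saa3 UMIs. Pglyrp1, which encodes a peptidoglycan-binding antibacterial protein, was the member that fell, from 64.7 and 127 CPM to 51.6 and 83.1 CPM (log2 fold change -0.47, edgeR adjusted p = 0.0388).

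Upstream sequence is shown for members of this list in which a script found the NF-kB consensus, to set the letters beside the values. RefSeq promoters on GRCm38.p6 were at hand for 7 of the 11 genes outside the score, and 3 of these, Ccl20, Nfkbia and Pglyrp1, held the consensus on either strand within 250 bases before the start. Among all 27025 genes with such promoters 4.46% had a promoter that held it. Of the 10 score members of the list, 8 had a promoter in the table and 2 held it, Cxcl1 and Cxcl2. A match is a description of letters, and Pglyrp1, which fell, carries one as the raised genes do. In the lines below the capitals mark the matches, the first base being the farthest from the start. They cover chr5:90903649-90903898 (plus strand) for Cxcl2, chr1:83116516-83116765 (plus strand) for Ccl20, chr12:55492648-55492897 (minus strand) for Nfkbia and chr7:18884440-18884689 (plus strand) for Pglyrp1.
Cxcl2: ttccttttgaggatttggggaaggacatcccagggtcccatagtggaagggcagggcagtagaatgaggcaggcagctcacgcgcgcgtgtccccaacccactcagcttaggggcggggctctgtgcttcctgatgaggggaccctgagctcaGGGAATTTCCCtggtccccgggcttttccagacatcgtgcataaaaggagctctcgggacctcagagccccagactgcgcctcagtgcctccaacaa
Ccl20: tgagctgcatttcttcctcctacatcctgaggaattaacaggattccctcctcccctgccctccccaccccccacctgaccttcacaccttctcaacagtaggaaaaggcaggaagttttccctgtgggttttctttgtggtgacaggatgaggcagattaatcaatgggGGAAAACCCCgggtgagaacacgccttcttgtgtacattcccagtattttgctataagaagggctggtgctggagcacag
Nfkbia: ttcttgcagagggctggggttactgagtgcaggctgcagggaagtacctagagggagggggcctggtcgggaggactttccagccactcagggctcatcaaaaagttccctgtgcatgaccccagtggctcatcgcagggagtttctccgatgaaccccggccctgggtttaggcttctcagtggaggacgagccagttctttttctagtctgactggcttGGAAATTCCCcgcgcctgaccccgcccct
Pglyrp1: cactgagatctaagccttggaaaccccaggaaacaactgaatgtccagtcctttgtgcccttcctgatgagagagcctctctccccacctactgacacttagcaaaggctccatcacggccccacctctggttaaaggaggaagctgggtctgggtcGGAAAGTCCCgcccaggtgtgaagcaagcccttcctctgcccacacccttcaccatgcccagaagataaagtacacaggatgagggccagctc

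As an alternative chosen after seeing the data, the cells were chosen again without the score's own acute-phase genes. When the squared distance was summed without the 10 acute-phase score genes and the same number of cells was taken from its top and bottom ends in each mouse, 83.7% and 71.0% of the high-score cells stayed on the high side. Of 12267 genes outside the score then tested, 1038 passed (8.46%), 618 higher (5.04%) and 420 lower (3.42%), and of the 11 acute-phase genes 7 were higher and 0 lower, with a median log2 fold change of 1.31. Cxcl5 kept a log2 fold change of 4.80 there and Nfkbiz one of 1.21. The distance still held other score genes of inflammation, such as S100a8, Cd14, Tnf and Nfkb1. The second choice of cells was therefore not independent of inflammatory genes either.

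Secretory genes made up a further group, and several of these rises rested on very few cells. Csn2 (chr5:87692624-87699630, minus strand) was detected in 6 high-score cells of mouse 1 and 7 of mouse 2, which held 153 and 126 UMIs, and in no low-score cell. Against a floor of 3 UMIs per low-score sum, its level in the high side was at least 94.6-fold higher in mouse 1 and at least 88.8-fold higher in mouse 2 in CPM, and the highest single cell supplied 44.4% and 57.9% of its UMIs. Csn2 passed the filter on low counts through the high side alone, so that it could only differ upward. The score that chose the cells holds 8 other genes of the milk protein list, Csn1s1 and Csn1s2a included. Scgb1b27 (chr7:34021483-34022881, plus strand) was at 36.1 and 1771 CPM against 0.377 and 6.81 CPM (log2 fold change 7.84, edgeR adjusted p = 1.79e-05). In mouse 1 it was found in 3 high-score cells, 1 of which held 96.8% of its UMIs. Scgb1b27 and Scgb2b26, which was at 1.26 and 184 CPM against 0 and 1.50 CPM, belong to the same secretoglobin cluster as the score gene Scgb2b27, and counting could split reads among such near copies. Car6, a secreted carbonic anhydrase, was at 353 and 470 CPM against 60.3 and 52.9 CPM (2.85, edgeR adjusted p = 0.000245), but within cluster 0 it had the opposite sign (-0.66, adjusted p = 0.0203).

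Other large rises outside the lists were more widely spread over cells or differed in size between the mice. Chil1 was at 1596 and 2237 CPM against 378 and 308 CPM, a rise of 5.54-fold (edgeR adjusted p = 0.000717), and it was detected in 408 and 409 high-score cells. Igfbp7, a secreted matrix-associated protein, was at 118 and 28.6 CPM against 12.9 and 8.83 CPM (log2 fold change 2.52, edgeR adjusted p = 0.00646). Ptx3, a soluble pattern recognition protein, was at 212 and 16.9 CPM against 57.1 and 1.04 CPM (2.45, edgeR adjusted p = 0.00934), so that the low side of mouse 1 lay above the high side of mouse 2. The chloride channel gene Clic3 was at 123 and 7.34 CPM against 5.92 and 2.48 CPM (3.46, edgeR adjusted p = 0.0123).

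Immediate early genes, which are switched on within minutes of growth factor or stress signals, rose as a group. Of 13 such genes, heat shock genes included, 10 were higher and 0 lower, with a median log2 fold change of 0.75. The share of higher genes outside the score as a whole was 7.40%. Fos was at 411 and 578 CPM against 98.3 and 230 CPM (1.69, edgeR adjusted p = 0.00285), and Egr1 at 208 and 360 CPM against 91.5 and 108 CPM (1.46, edgeR adjusted p = 0.00229). Fosb rose by 1.48 and Atf3, a stress-induced repressor, by 1.34 on the log2 scale. Ier3 did not pass (log2 fold change 0.10, edgeR adjusted p = 0.549). The size of this group's change moved with the cluster mix: its median was 0.20 with 5 genes higher when both sides had the same mix, and 0.25 with 5 higher in cluster 0 alone.

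Interferon and antigen presentation genes were modestly raised, more often than the 7.40% of all genes outside the score that were higher. Of 11 interferon response genes outside the score 5 were higher and 0 lower (median log2 fold change 0.69), and of 10 genes of MHC class I and antigen processing 5 were higher and 0 lower (median 0.48). Irf7, the transcription factor that amplifies the interferon response, was at 106 and 66.6 CPM against 60.5 and 34.4 CPM (0.88, edgeR adjusted p = 0.00545). B2m, the light chain of MHC class I, was at 869 and 637 CPM against 564 and 388 CPM (0.67, edgeR adjusted p = 0.00596), and the heavy chain gene H2-K1 at 1385 and 972 CPM against 876 and 634 CPM (0.64, edgeR adjusted p = 0.00596). Within each mouse the high side was above the low side for these genes. In cluster 0 alone 5 of 9 antigen processing genes were higher. The interferon genes Ifit3 and Isg15 lost their calls there and with an equal cluster mix. In mouse 2 the summed interferon list did not rise steadily with the score. In plain sums it was at 1116 CPM under 0.1, at 1524 CPM from 0.1 to 0.3 and at 1416 CPM above 0.9.

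Among genes of the unfolded protein and integrated stress responses, 6 of 14 were higher and 0 lower (median 0.41). The shares over all genes outside the score were 7.40% higher and 4.71% lower. Herpud1, a component of endoplasmic reticulum-associated degradation, was at 25.8 and 32.9 CPM against 8.98 and 8.72 CPM (1.72, edgeR adjusted p = 0.00228). Ddit3, the stress transcription factor CHOP, was at 64.0 and 51.5 CPM against 37.5 and 24.3 CPM (0.92, edgeR adjusted p = 0.00719). In the separate list of NRF2 targets and metallothioneins 2 of 11 genes were higher and 3 lower (Mt1, Mt2 and Gsta4), and Hmox1, which degrades heme, was at 208 and 154 CPM against 103 and 66.3 CPM (1.11, edgeR adjusted p = 0.00179).

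Lineage genes outside the score changed in part along the progenitor to mature axis and in part against it. Prom1 stands in both the progenitor and the mature luminal list used here. Of 6 luminal progenitor markers that the score does not hold, Ltf and Prom1 were higher and 4 did not pass. Among those 4, Aldh1a3, the aldehyde dehydrogenase of progenitors, was at 79.3 and 49.8 CPM against 21.9 and 37.0 CPM (log2 fold change 1.14, edgeR adjusted p = 0.0501), and the integrin gene Itga2 had 0.68 (edgeR adjusted p = 0.0505). These calls depended on the setting: 5 of the 6 were higher without the cells of other types, with at least 10000 UMIs per cell, or with the score genes taken out, while DESeq2 called Aldh1a3 alone (Ltf adjusted p = 0.0625, Prom1 adjusted p = 0.127). Without the cells led by 1 score gene Ltf did not pass (edgeR adjusted p = 0.0587). Of 9 mature luminal markers 3 were lower, Areg, Esr1 and the hormone-linked cofactor Cited1, which passed the filter through the low side alone, and 2 were higher, Prom1 and Ly6a. Areg was at 345 and 154 CPM in high-score cells against 1008 and 337 CPM (-1.34, edgeR adjusted p = 0.00157), and Esr1 at 55.7 and 65.3 CPM against 97.2 and 109 CPM (-0.77, edgeR adjusted p = 0.00662). Cluster 3 held 76.8% of the low-side Areg UMIs of mouse 1 and 38.2% of those of mouse 2, yet Areg was also lower within cluster 0 (-1.69, adjusted p = 9.77e-05).

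The mean mature luminal score nevertheless was higher on the high side, at 0.209 against 0.119 in mouse 1 and 0.243 against 0.128 in mouse 2. Of 341 mature luminal signature genes that could be fitted, 40 were higher and 11 lower (median 0.21). The mean basal score was 0.0922 against 0.171 in mouse 1 and 0.115 against 0.0988 in mouse 2, so its direction differed between the mice. Of 762 basal signature genes 61 were higher and 86 lower (median -0.14). The lower ones hold genes of dividing cells, such as Birc5, Rrm2 and Stmn1. Over all genes outside the luminal progenitor score 7.40% were higher and 4.71% lower. The genes of both signatures were recovered from the deposited distances in the same way, with an R2 of 0.972 for the basal list.

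Krt8, Krt18, Krt14 and Krt17 did not pass the test, though some other keratin genes did. Several calls of this group depended on the setting. Krt8 was at 6014 and 6974 CPM against 4155 and 6514 CPM (0.32, edgeR adjusted p = 0.106) and Krt18 at 5632 and 6586 CPM against 3364 and 5966 CPM (0.44, edgeR adjusted p = 0.0778). Krt18 passed without the cells of other types (adjusted p = 0.0457). Of 12 pan-luminal genes 3 were higher, Elf3, Gata3 and Cdh1, and 0 lower. The epithelial transcription factor Elf3 had the largest change, at 135 and 259 CPM against 43.8 and 106 CPM (1.45, edgeR adjusted p = 0.00103). Of 14 basal and myoepithelial genes 1 was lower, Lgals7, a galectin of stratified epithelium, at 261 and 542 CPM against 749 and 1159 CPM (-1.31, edgeR adjusted p = 0.00179). Krt14 was at 27.8 and 82.3 CPM against 2.96 and 46.1 CPM (1.76, edgeR adjusted p = 0.0502) and Krt17 at 15.4 and 15.3 CPM against 20.8 and 24.1 CPM (-0.54, edgeR adjusted p = 0.0542). Acta2, the smooth muscle actin, had -1.49 (edgeR adjusted p = 0.0695). With the cells of other types left out, or the score genes taken out of the fit, 3 of the 14 basal genes were higher, Krt14, Lamb3 and Tagln, and 3 were lower, Lgals7, Krt17 and Acta2, and with thinned cells Krt14 was higher and Krt17 and Acta2 were lower. Krt14, Krt17 and Acta2 rested on few cells in some sums. A single cell held 60% of the 55 Krt14 UMIs in the low side of mouse 1. In mouse 2 a single cell held 49.6% of the high-side Krt17 UMIs and another share, 78.3%, of the 46 low-side Acta2 UMIs lay in 1 cell.

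Sox10, a neural crest and mammary progenitor transcription factor, was at 126 and 115 CPM against 129 and 127 CPM (-0.08, edgeR adjusted p = 0.603). Among genes of neural and glial lineages, Mia, which encodes a small secreted protein of melanoma and cartilage, was at 180 and 112 CPM against 81.4 and 62.0 CPM (1.00, edgeR adjusted p = 0.00410), while the intermediate filament gene Nes had -0.81 (edgeR adjusted p = 0.0593) and the myelin gene Pmp22 0.65 (edgeR adjusted p = 0.170). Nes and Pmp22 depended on the setting. With the same cluster mix on both sides, and in cluster 0 alone, Nes passed as lower and Pmp22 as higher. DESeq2 also called Nes. Vim, the mesenchymal intermediate filament, was at 113 and 24.5 CPM against 52.3 and 14.1 CPM (0.97, edgeR adjusted p = 0.00656). Vim lost its call with thinned cells (adjusted p = 0.0890), in cluster 0 alone (adjusted p = 0.0624) and without the cells led by 1 score gene (adjusted p = 0.189). Besides it, Tgfb1 and Mmp14 were higher among the 11 mesenchymal genes, where 7.40% of all genes outside the score were higher.

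The EGF receptor family changed in both directions. Egfr itself was at 91.2 and 66.2 CPM against 30.7 and 36.1 CPM (1.23, edgeR adjusted p = 0.00818) and the ligand gene Nrg1, which binds ERBB3 and ERBB4, at 12.8 and 16.9 CPM against 3.44 and 7.85 CPM (1.47, edgeR adjusted p = 0.0116). Areg was lower, as given above. In all 3 of the 10 genes were higher and 3 lower, against 7.40% and 4.71% of all genes outside the score.

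Transcription factors of the alveolar program rose in part. Of 8 outside the score 4 were higher and 0 lower: Runx1 at 254 and 231 CPM against 120 and 135 CPM (0.93, edgeR adjusted p = 0.00455), Tfcp2l1 (1.19), Cebpb (0.60) and Sox9 (0.49). In the Notch list, the ligand gene Dll1 (1.70) and the target gene Hes1 (0.66) were higher among 6 genes. The share of higher genes outside the score as a whole was 7.40%. Tfcp2l1, Sox9, Dll1 and Hes1 lost their calls with an equal cluster mix and in cluster 0 alone, where Runx1 and Cebpb kept theirs. DESeq2 called neither Sox9 nor Dll1.

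**Figure D4:**
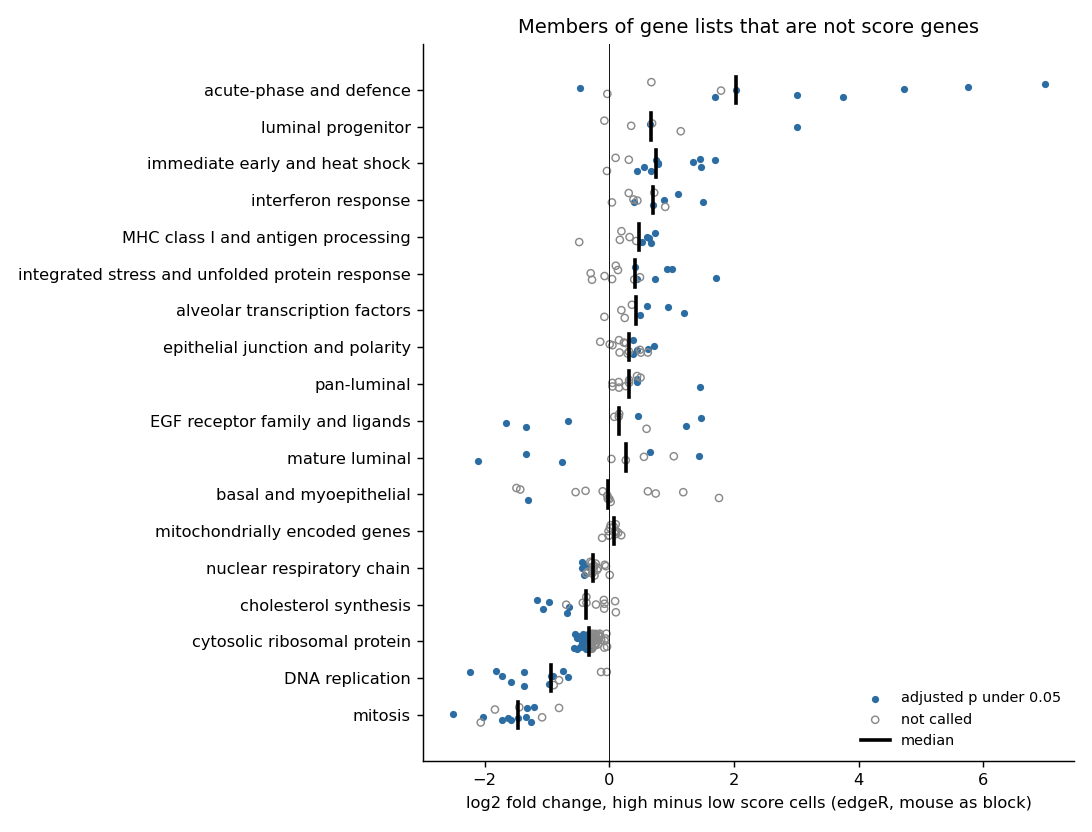
Log2 fold change between high-score and low-score cells (x axis) of each member outside the score in 18 gene lists (rows), filled in blue past an adjusted p of 0.05, with the list's median as a black bar. Acute-phase genes reach the far right, while the DNA replication, mitosis and ribosomal lists lie to the left of 0.

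Genes of proliferation and growth were lower in high-score cells. Of 15 mitosis genes 10 were lower and 0 higher (median log2 fold change -1.46), and of 15 DNA replication genes 11 were lower and 0 higher (median -0.94). Of the mitosis genes 3 passed the filter on low counts through the low side alone, so that they could only fall, and these were not called. Among the other 12 mitosis genes 10 were lower (median -1.40). The summed mitosis list was at 58.2 and 64.7 CPM in high-score cells and at 156 and 177 CPM in low-score cells, and it was at 47.7 and 77.1 CPM in the middle cells, so the low side stood apart from both other groups. The middle cells of mouse 2 were uneven. In plain sums the list was at 67.5 CPM for scores from 0.1 to 0.3, at 127 CPM from 0.3 to 0.5 and at 181 CPM under 0.1. Birc5, which encodes survivin, was at 6.82 and 3.11 CPM against 19.3 and 21.0 CPM (-2.03, edgeR adjusted p = 0.00849) and Rrm2, a subunit of ribonucleotide reductase, at 3.78 and 4.98 CPM against 14.5 and 16.2 CPM (-1.82, edgeR adjusted p = 0.00371). Stmn1, a microtubule destabilizer of dividing cells, was at 64.9 and 73.4 CPM against 172 and 208 CPM (-1.45, edgeR adjusted p = 0.000506).

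Genes of ribosomes and sterol synthesis followed. Of 82 cytosolic ribosomal protein genes 51 were lower and 0 higher, and 79 were lower in both mice, but the shifts were small, with a median log2 fold change of -0.33 and the extremes at -0.57 and -0.04. DESeq2 called 6 of the 82 lower, against 1.05% of all genes tested outside the score, and without the cells led by 1 score gene edgeR called 8, against 2.40% of all. Their summed level was 182414 and 174421 CPM against 222310 and 223024 CPM, that is, the middle cells at 189809 and 180904 CPM were again close to the high side. Of 15 cholesterol synthesis genes 5 were lower, led by the isomerase gene Idi1, at 26.1 and 28.1 CPM against 59.9 and 61.3 CPM (-1.16, edgeR adjusted p = 0.00242). Of 20 nuclear genes of the respiratory chain 5 were lower and 0 higher (median -0.27).

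These falls moved with the cluster mix. In cluster 0 alone, where the 4 sums held from 2947127 to 5332469 UMIs, 465 of 9759 genes outside the score passed (4.76%), 386 higher (3.96%) and 79 lower (0.810%), and 395 of them were among the 1481. There, 5 of 8 acute-phase genes were higher and 1 lower (median 2.40), whereas 0 of 82 ribosomal protein genes passed in edgeR and 29 had an unadjusted p under 0.05 (median -0.18). Of 9 DNA replication genes tested there 0 were lower and 1 was higher, the same 1 having an unadjusted p under 0.05. The rest of the 15, Rrm2, Uhrf1 and Mcm5 among them, had too few UMIs to enter that test. It therefore cannot show whether those genes fell within cluster 0. With the same cluster mix on both sides, 727 of 11191 genes passed (6.50%), 537 higher (4.80%) and 190 lower (1.70%), and 8 of 10 acute-phase genes were higher, 5 of 14 DNA replication genes lower and 1 of 10 mitosis genes lower. With cells thinned to 5000 UMIs 44 of the 82 ribosomal protein genes were lower and 8 of 10 mitosis genes, where 3.97% of all genes tested outside the score were lower.

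Among called genes that reached 50 CPM the largest fall was that of Smr3a, a salivary-type secreted prohormone gene, at 15.4 and 1.24 CPM against 396 and 40.7 CPM (-4.75, edgeR adjusted p = 1.40e-05). Cluster 3 held 86.7% and 87.8% of its low-side UMIs, and with the same cluster mix its log2 fold change was -2.46 (adjusted p = 4.10e-06). Ckb, the brain-type creatine kinase, was at 56.8 and 32.7 CPM against 179 and 103 CPM (-1.66, edgeR adjusted p = 0.000376), and Rbp7, a retinol-binding protein, at 9.86 and 21.8 CPM against 44.9 and 57.9 CPM (-1.77, edgeR adjusted p = 0.00379). Both were also lower within cluster 0, with log2 fold changes of -1.31 and -1.92. Phgdh, the first enzyme of serine synthesis, and Dctpp1, which clears non-canonical nucleotides, fell by 1.07 and 1.04 on the log2 scale, and in cluster 0 alone neither passed (edgeR adjusted p = 0.0843 and 0.102). The metallothionein gene Mt2 was at 52.4 and 89.2 CPM against 81.7 and 234 CPM (-1.02, edgeR adjusted p = 0.0146). Mt2 lost its call with an equal cluster mix (-0.17, adjusted p = 0.498) and in cluster 0 alone (-0.052, adjusted p = 0.953).

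**Figure D5:**
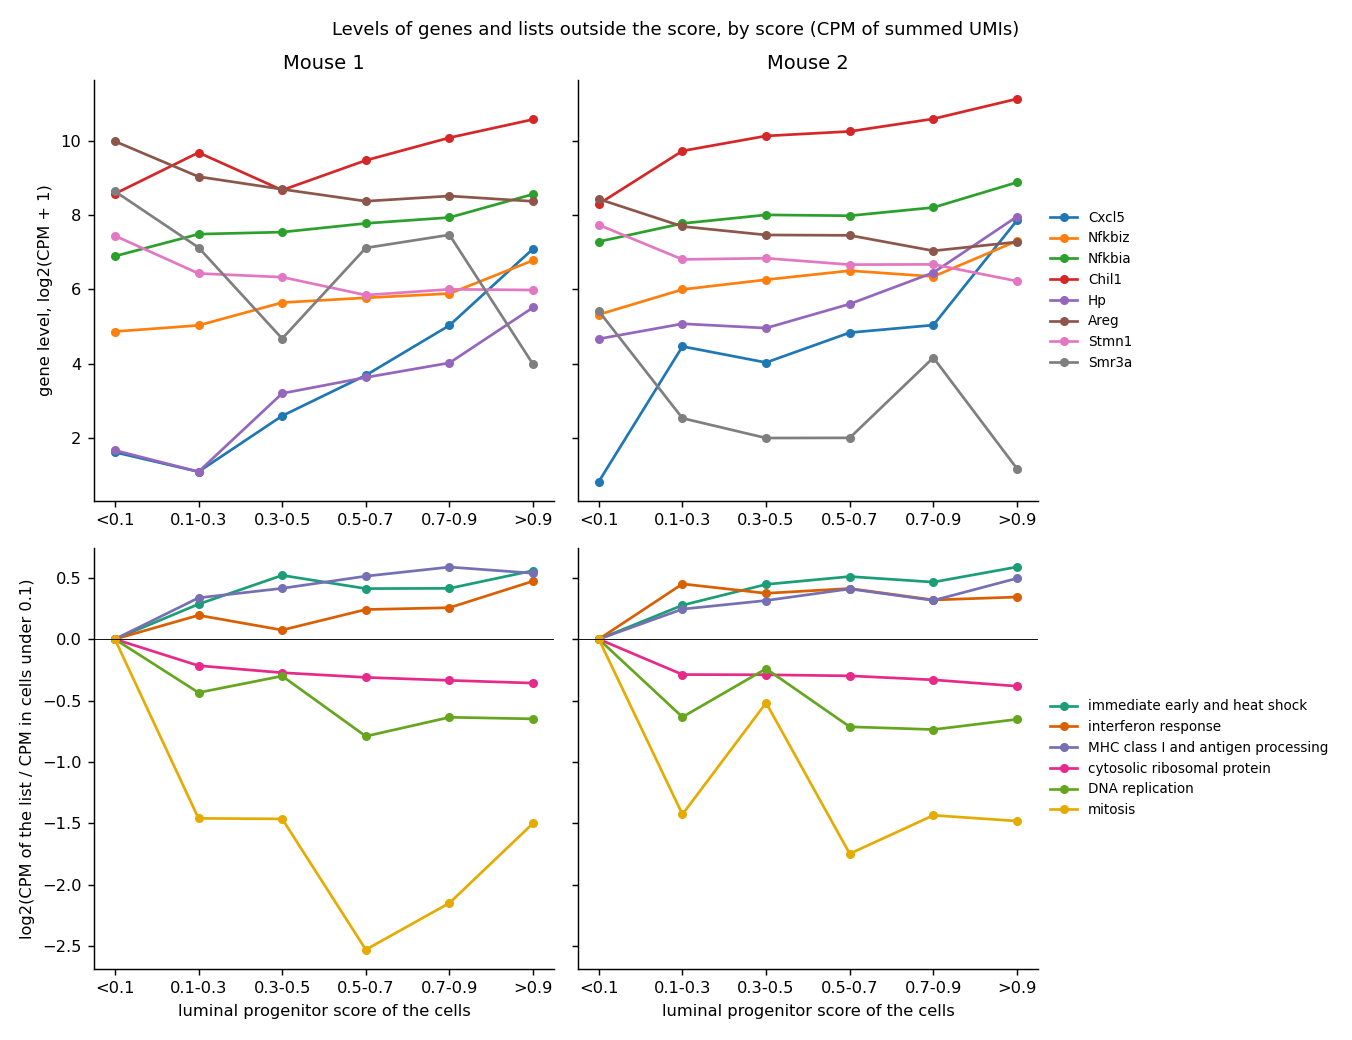
Top, level of 8 genes outside the score as log2(CPM + 1) across 6 score ranges from under 0.1 to above 0.9 in mouse 1 (left) and mouse 2 (right). Bottom, log2 of the summed CPM of 6 gene lists over that in cells with scores under 0.1. Cxcl5 and Hp are highest in the range above 0.9 in both mice, while the mitosis and ribosomal lists have dropped in the range next to the lowest.

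Other cell types in the sort were checked by lists of their markers, without scoring beyond the UMIs. In each sum of a mouse and side at most 0.475% of cells held UMIs of 3 or more macrophage genes, and no cell did so for fibroblast or neutrophil genes. Macrophage list genes summed to 28.2 and 39.9 CPM in high-score cells and to 18.6 and 17.5 CPM in low-score cells, and Cd68, a lysosomal macrophage marker that epithelial cells also express at a low level, was higher (0.91, edgeR adjusted p = 0.0143). The neutrophil list stood at 68.8 and 508 CPM against 20.5 and 38.5 CPM, and its only gene with enough UMIs to be fitted, S100a8, is a score gene that the rule used to choose the cells, at 71.6 and 504 CPM against 19.6 and 37.0 CPM. In this list 3 to 6 of the 8 genes were at 0 in each sum. When all cells with 3 or more genes of any stromal or immune list were left out, 1854 genes outside the score passed, 9.17% of those tested being higher, and 7 of the 11 acute-phase genes were higher as before. The part of such cells in the other differences was not tested.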

How the data were processed

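Tumors of 2 mice were each sequenced as 1 library with 10x 3' chemistry. Per the labels and the study's methods, the authors aligned reads with Cell Ranger (6.0.1) to mm10, deposited raw UMI counts per gene and barcode, removed doublets, clustered the cells with Seurat and scored them for published luminal progenitor, mature luminal and basal signatures. The deposited annotation gives UMI counts per cell, the mitochondrial UMIs as a fraction of all UMIs, and for each signature a squared distance and a score from 0 to 1 that the authors made with VAM from log-normalized counts. All 16037 genes the authors kept were found in the deposited gene lists, and no per-sample column was left unused.

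UMIs were summed per mouse and side from the counts as deposited. The 4 sums held 8001252 to 18430927 UMIs. They were filtered with filterByExpr, scaled by TMM (factors 0.961 to 1.03) and tested with the quasi-likelihood test of edgeR (4.0.16, R 4.3.3), high against low with the mouse as a block, at a Benjamini-Hochberg adjusted p of 0.05. Both sides of a number come from the same animal, and the Pearson correlation of their deviations across genes was 0.635. CPM values are TMM-scaled except those of the cells by leading gene, the cell type lists and the floor of Csn2, which use plain sums. Score genes were recovered from the deposited distances, since squared log-normalized values over a technical variance sum to the distance, and take no test. Named genes are the 12 largest rises and falls among called genes of at least 50 CPM that moved the same way in both mice, with up to 4 called members of each gene list, those with the largest change, and genes the study followed; Aldh1a3, Itga2, Ier3, Nfkbia, Pglyrp1, Lamb3, Tagln and S100a8 fall outside this rule and were picked with their values in view. A gene that the rule names is not reported here. The members and lists were chosen with earlier results of these data known. Simulated counts for 12598 genes were used to check the test. Alternatives were DESeq2 (1.42.0), relative log expression scaling, no filter, no block, other limits, depth, cluster mix and each sum left out.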

Additional observations from a re-analysis of the deposited data

How the results depend on the processing

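Over all genes, score genes included, 1687 were called and 1481 of them lay outside the score. Without the mouse as a block, which pairs both sides of an animal, 4 and 0 were called, and 1199 genes outside the score had an unadjusted p under 0.05. DESeq2 called 668 and 541, relative log expression scaling gave 1097 and 929, no filter 2847 and 2595, a test against a fold of 1.5 gave 259 and 185, an equal cluster mix 896 and 727, and, chosen after seeing the data, cluster 0 alone 586 and 465 and leaving out cells led by 1 score gene 967 and 809. Leaving out 1 of the 4 sums left 8 to 15 and 4 to 8 calls, and the lone sum was then assumed to vary like the others. Values of the opposite sign were a log2 fold change of -0.66 for Car6 in cluster 0, of -0.049 for Ier3 without cells led by 1 score gene and -0.016 with the score lacking its acute-phase genes, of -0.027 and -0.037 for Krt19 with an equal mix and in cluster 0, and of 0.050 for Sox10 with the score lacking its acute-phase genes. With 1 sum left out the log2 fold change crossed 0 for these genes and ranged from -2.57 to 0.45 for Acta2, -0.14 to 0.38 for Epcam, -0.023 to 0.80 for Gata3, -0.14 to 0.34 for Ier3, -0.74 to 2.92 for Ifit3, -0.087 to 1.31 for Isg15, -0.27 to 1.33 for Krt19, -0.0057 to 0.65 for Krt8, -0.28 to 2.77 for Ly6a, -0.91 to 0.058 for Pglyrp1, -0.81 to 6.77 for Ptx3 and -0.47 to 2.29 for Vim. Wide ranges that did not cross 0 were 0.75 to 13.1 for Scgb2b26, 3.33 to 11.2 for Scgb1b27, 1.84 to 6.09 for Hp, 0.77 to 4.87 for Clic3 and 0.18 to 4.21 for Krt14. These ranges come from fits without the mouse as a block, so they also hold differences between the mice. How far each range rests on those differences was not tested. Within each mouse taken alone, 0 of the 94 called genes followed had the opposite sign. Of 94 called genes followed through the alternatives, 66 were called by DESeq2 and 59 of the 90 tested with an equal cluster mix. Thinning to 5000 UMIs left 81 of 88 called.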

Other observations

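Gene lists not described above changed in few members, beside shares of 7.40% higher and 4.71% lower over all genes outside the score. Among 17 genes of hypoxia and glycolysis the glucose transporter gene Slc2a1 and the hexokinase gene Hk2 were higher and 1 gene was lower (median log2 fold change 0.14). Among 17 genes of epithelial junctions 5 were higher and 0 lower, with occludin (Ocln), plakophilin 2 (Pkp2) and plakoglobin (Jup) among them (median 0.31). Of 7 mammary progenitor surface protein genes outside the score 4 were higher, the hyaluronan receptor gene Cd44 and the stem cell receptor gene Lgr5 included, and Procr was lower. Of 5 aquaporin and ion transport genes Aqp3, a glycerol channel gene, was lower. Srebf1, a regulator of lipid synthesis genes, was higher and the fatty acid synthase gene Fasn was lower among 13 genes of fatty acid and milk fat synthesis. The counts of this list and of the hypoxia list lie near the shares over all genes.

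Among lists of other cell types, the Schwann cell genes summed to 61.3 and 75.2 CPM in high-score cells and 39.7 and 50.9 CPM in low-score cells of mice 1 and 2, the endothelial genes to 9.56 and 20.7 against 8.41 and 25.4 CPM, the pericyte genes to 23.4 and 42.6 against 12.6 and 29.4 CPM, and the fibroblast genes to 4.33 and 8.25 against 5.37 and 4.97 CPM. The T and NK cell, B cell and adipocyte lists reached at most 1.01 CPM in any of the 4 sums, and the erythroid list at most 2.25 CPM.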
